A study of Populus trichocarpa with 12 samples.

Results

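A set of 187 genes of moderate level in differentiating xylem of Populus trichocarpa (black cottonwood) fell at each sampled stage of a drought treatment. They were picked from 41335 gene identifiers by their CPM (a gene's count divided by the total count of its library in M) and by L, which is log2(CPM + 1). A member had a mean of 5 to 100 CPM on day 0, a mean L on day 5 at least 1 below that of day 0, a mean L on day 7 at least 1 below that of day 5, and all 4 day 5 libraries below all 4 day 0 libraries. Of the 16967 genes with a mean of 5 to 100 CPM on day 0, 1.10% met these limits. Since the levels of all 3 days chose the members, the falls themselves are given as a description, without a test.

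The RNA came from the outer wood of stems of greenhouse trees, taken with a blade once the bark was off, and was sequenced as 4 libraries for each of 3 days. On day 0, with full irrigation, the soil held 74% and the xylem 80.6% water. On day 5 without watering, a stage described as mild stress, the water contents were 33% and 75.3%. On day 7, described as severe stress, they were 29% and 74.3%. All plants were of the same species and the same tissue, and the labels give neither a genotype nor whether each library came from a separate tree, so the spread between libraries may be partly technical. The growth text speaks of several planting batches of transgenic trees with their wild type, without assigning libraries to a batch or genotype. No later watered plants enter this comparison, and so drought length, plant age and harvest day cannot be told apart. Total counts ran from 9.35 to 19.2 M per library.

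Differentiating xylem is the zone where cells left behind by the cambium expand, lay down thick secondary walls of cellulose, xylan and lignin, and, in vessels and fibres, die. Water shortage is known to slow wood formation in trees, because cell expansion depends on turgor and wall building depends on carbon supply. The files do not pair the identifiers with gene names or products, so the members are described by identifier and by their levels, and no role is given to any of them. In scraped tissue, fewer cells of a type and less RNA per cell cannot be told apart.

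As a group, the members lost most of their transcripts. Their joint share of a library was 0.805% ± 0.233 for day 0, 0.174% ± 0.0409 for day 5 and 0.0533% ± 0.0234 for day 7 (SD, n = 4 each). The median member had a mean of 38.1 CPM on day 0, 6.79 CPM on day 5 and 1.52 CPM on day 7. Its level on day 5 was 21.1% of the day 0 level, its level on day 7 was 24.7% of the day 5 level, and on day 7 it stood at 5.16% of day 0, each a median of ratios of mean CPM over the 187 genes. On day 7, 149 members were at or under 10% of their day 0 CPM, against 25 on day 5. The median L of all 16967 genes in range lay between 4.25 and 4.50 in every library. Scaling to a common total tends to keep such a broad median level but does not fix it. In day 0 replicate 2, 56.7% of the genes in range had their lowest level of that day.

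**Figure D1:**
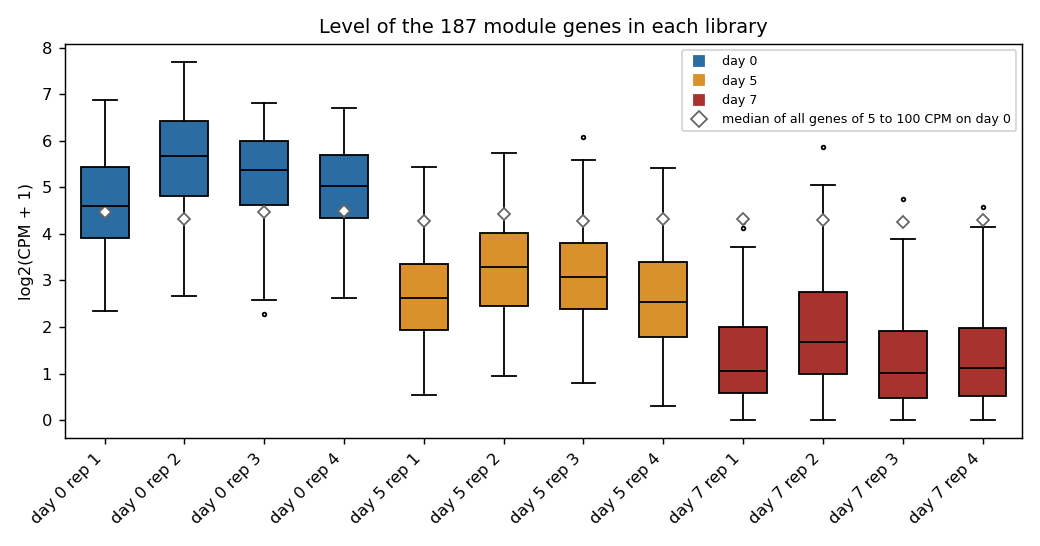
Level of the 187 module genes in each of the 12 libraries, as log2(CPM + 1); boxes span the quartiles with the median as a line, whiskers reach 1.5 times the box, points are genes beyond them, and open diamonds give the median of all 16967 genes of 5 to 100 CPM on day 0. Module medians lie between 4.59 and 5.68 on day 0, between 2.53 and 3.29 on day 5 and between 1.01 and 1.68 on day 7, while the diamonds stay between 4.25 and 4.50.

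In every library the median over members followed the falls that the rule required of the day means. The median L over members was 4.59, 5.68, 5.37 and 5.02 in day 0 replicates 1 to 4, then 2.62, 3.29, 3.08 and 2.53 in day 5 replicates 1 to 4, and 1.06, 1.68, 1.01 and 1.11 in day 7 replicates 1 to 4. The 3 days did not overlap in this median, although the day 7 and day 5 ranges met in 74 single members. Day 7 replicate 2 was the day 7 library with the highest level and day 0 replicate 1 the day 0 library with the lowest. No member was without counts on day 7, but 3 had at most 3 counts over the 4 libraries, 23 had a 0 in at least 1 library, and 65 averaged under 1 CPM.

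**Figure D2:**
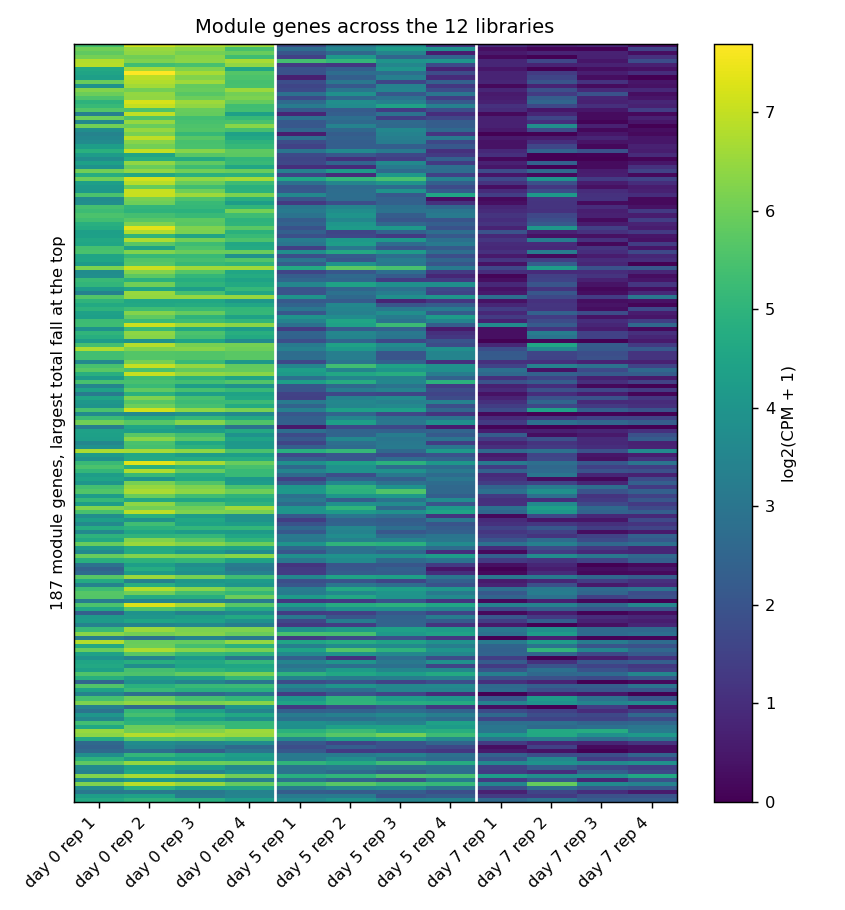
Levels of the 187 module genes (rows, ordered by the total fall, largest at the top) in the 12 libraries (columns, by day and replicate), coloured by log2(CPM + 1). Colours darken from day to day, the day 0 replicate 2 column is the brightest, and day 7 replicate 2 keeps more lit rows than the other day 7 columns.

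In the edgeR quasi-likelihood fit over 26943 genes, 181 of the 187 members were called lower on day 5 than on day 0 at an adjusted p under 0.05, beside 28.8% of all genes tested. For day 7 against day 0 all 187 were called lower, beside 23.6% of all genes. Between day 7 and day 5, 153 were called lower, beside 19.9% of all genes. The rule used each of these contrasts, so the counts only describe how far the chosen genes stood from the spread between libraries. The 34 members not called between day 7 and day 5 all had day 7 libraries that reached into the day 5 range. The fitted log2 fold change had a median of -2.18 over members for day 5 against day 0 (range -4.46 to -0.93), beside -0.010 over all genes tested. It had a median of -4.16 for day 7 against day 0 (range -8.49 to -1.79), beside 0.034 over all genes, and of -1.95 for day 7 against day 5 (range -5.47 to -0.59), beside 0.0060 over all genes. Day 0 libraries serve both drought comparisons, and day 5 libraries serve as well in the third.

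The rule asked for separate libraries between day 5 and day 0 but not between day 7 and day 5. All 4 day 7 libraries lay below all 4 day 5 libraries in 113 members, while in the other 74 the ranges met. Among all genes of 5 to 100 CPM on day 0, 21.9% had day 7 libraries wholly below those of day 5. The limit on L7-L5 drew on these same libraries and favours such separation. Of the 16967 genes in range, 1669 met that limit, so the contrast with the members is a description.

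The step sizes differed widely among members. L5-L0 ran from -4.10 to -1.005 with quartiles of -2.72 and -1.66 and a median of -2.06. L7-L5 ran from -3.44 to -1.002 with quartiles of -1.66 and -1.15 and a median of -1.35. On this scale the first step was the larger one in 150 members and the second in 37. That split leans on the 1 CPM added before taking logs, which shrinks falls among low values: as ratios of mean CPM, the first step was larger in 102 of 187, and by fitted log2 fold change in 104. Across members, the rank correlation of both steps was -0.01 on the L scale and 0.27 for the fitted fold changes, a description in which the 2 steps share the day 5 libraries.

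**Figure D3:**
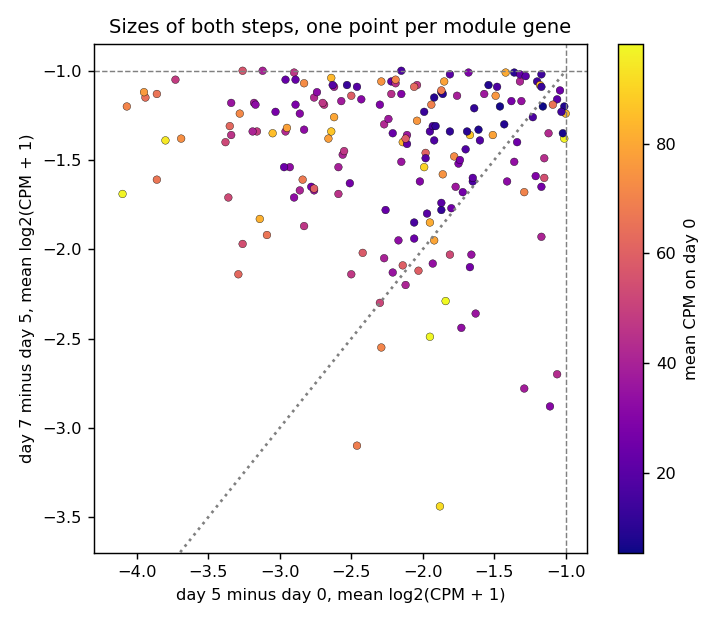
Size of the first step (horizontal, day 5 minus day 0) against the second (vertical, day 7 minus day 5), both as differences of mean log2(CPM + 1), with 1 point per module gene coloured by its mean day 0 CPM. Dashed lines mark the limit of -1 on each axis and the dotted line equal steps; most points (150 of 187) lie left of the dotted line, and few reach a second step below -2.5.

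Genes with more transcripts on day 0 were picked at a higher share. Members made up 0.529% of all genes of 5 to 25 CPM (51 members), 1.65% of those of 25 to 50 CPM (74 members) and 2.19% of those of 50 to 100 CPM (62 members). The added 1 CPM leaves little room for 2 steps of this size in genes near 5 CPM. In CPM ratios, the median share of day 0 left on day 5 was 24.1%, 19.3% and 19.5% in the 3 bands, and the median share of day 5 left on day 7 was 22.9%, 24.5% and 31.1%. To meet a limit set on L, a gene at lower CPM must lose a larger share of its CPM. The order of these shares is therefore a description.

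Some genes lay close to the limits. The member nearest to the first limit had an L5-L0 of -1.005 and the nearest gene outside had -0.989. For L7-L5 these values were -1.002 and -0.990. The most abundant member averaged 98.1 CPM on day 0, and the nearest gene above 100 CPM that met the other limits averaged 100.8 CPM. The least abundant member averaged 5.46 CPM, and no gene below 5 CPM met the other limits. In the member with the narrowest gap, the lowest day 0 library was 0.0068 above the highest day 5 library in L, and in the nearest gene outside that gap was -0.0088.

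The 2 members with the deepest first step lost nearly all transcripts by day 5. Potri.008G112300 had 42.0, 139, 111 and 95.8 CPM in day 0 replicates 1 to 4, 2.42, 6.71, 11.1 and 1.39 CPM in those of day 5, and 1.00, 0.609, 0.790 and 0.231 CPM in those of day 7. Its days did not overlap, and L5-L0 was -4.10 and L7-L5 was -1.69. Potri.004G044700 had 116, 39.4, 42.8 and 84.9 CPM on day 0, 1.51, 1.35, 10.5 and 2.32 CPM on day 5, and 0.772, 0.685, 0.677 and 0.617 CPM on day 7. Day 5 replicate 3 held several times the level of the other day 5 libraries, while the day 7 libraries were nearly equal. Here L5-L0 was -4.07 and L7-L5 was -1.20; without day 5 replicate 3 L7-L5 was -0.68, and with medians of the libraries -0.78, both short of the limit of -1.

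The 2 members with the deepest second step kept a clear level on day 5 and lost it by day 7. Potri.012G047200 had 111, 72.5, 80.2 and 103 CPM on day 0, 41.4, 33.5, 14.8 and 15.4 CPM on day 5, and 0.772, 2.13, 0.395 and 2.54 CPM on day 7. It averaged 1.46 CPM ± 1.04 on day 7, against 26.3 CPM ± 13.3 on day 5 (SD, n = 4 each), and L7-L5 was -3.44. Potri.017G085000 had 63.5, 90.0, 78.6 and 42.4 CPM on day 0, 5.67, 10.6, 18.6 and 13.5 CPM on day 5, and 0.232, 0.0761, 0.0564 and 1.93 CPM on day 7. Replicate 4 held most of what was left on day 7, where the 4 libraries had 30 counts in all, and L7-L5 was -3.10.

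The 2 most abundant members shared a profile in which 1 day 7 library stood out. Potri.006G005600 had 71.8, 133, 95.1 and 93.0 CPM on day 0, 24.7, 52.5, 42.6 and 8.04 CPM on day 5, and 2.08, 18.2, 2.82 and 3.24 CPM on day 7. Potri.002G176800 had 62.6, 143, 86.7 and 97.0 CPM on day 0, 22.2, 32.7, 43.1 and 9.35 CPM on day 5, and 2.32, 14.1, 1.47 and 1.93 CPM on day 7. In both, day 7 replicate 2 lay above the day 5 replicate 4 library, so the day 7 and day 5 ranges met.

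**Figure D4:**
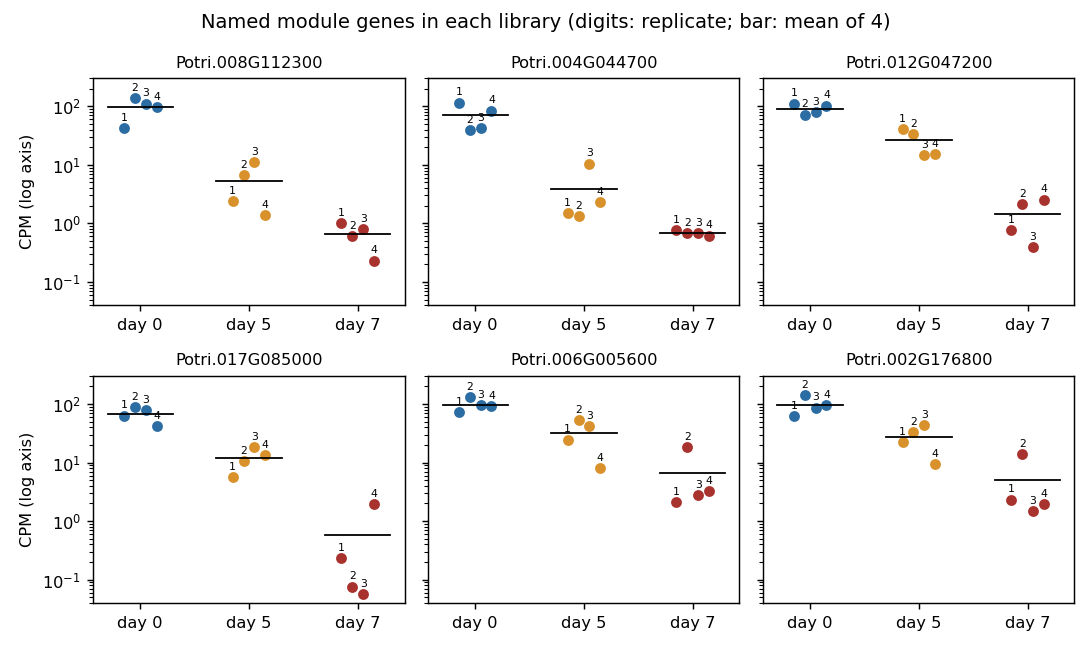
CPM (log axis) of the 6 named module genes in the 12 libraries; each point is 1 library, the digit its replicate number and the bar the mean of 4. The upper left and upper middle genes lose most by day 5. In the upper right and lower left genes the step from day 5 to day 7 is the larger one on the log axis. In the lower middle and lower right genes day 7 replicate 2 stands at 18.2 and 14.1 CPM, above the other day 7 libraries.

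The 2 genes outside the set whose levels went most closely with its mean across the 12 libraries both failed only the upper limit on day 0. Potri.014G114700 (Pearson r = 0.993) averaged 2340 CPM ± 843 on day 0, 286 CPM ± 98.1 on day 5 and 79.6 CPM ± 12.1 on day 7 (SD, n = 4 each). Potri.001G279500 (r = 0.993) averaged 103 CPM ± 30.3, 27.5 CPM ± 5.31 and 11.6 CPM ± 4.08 on the same days. Members themselves had r from 0.862 to 0.996 with that mean, a likeness the rule made necessary.

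The same pattern extended to abundant genes. With no upper limit, 146 further genes met the rule, which is 7.29% of the 2002 genes above 100 CPM on day 0. These took 4.91% to 11.6% of all counts on day 0, 1.02% to 2.04% on day 5 and 0.309% to 0.739% on day 7. Among them were 16 of 24 genes known from published designations, not from the files, as enzymes of monolignol synthesis (the precursors of lignin) and as cellulose synthases of the secondary wall. None of these 24 wood genes was a member, since their mean day 0 levels lay between 111 and 2663 CPM. That list was already known to fall in these data, so its overlap with the pattern adds no independent evidence.

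Genes were then chosen anew from 11 libraries at a time, and the step was read in the library left out, whose levels took no part in that choice. The levels of the other days that it was set against did help to choose the genes. The shares are therefore a description and not an independent test. With a day 7 library left out, that library was at least 1 below the day 5 mean in L in 144 of 176 chosen genes for replicate 1, in 151 of 176 for replicate 3 and in 135 of 168 for replicate 4. These shares of 81.8%, 85.8% and 80.4% stood beside 8.77%, 14.5% and 7.16% of all genes in the day 0 range. For day 7 replicate 2 this was so in 83 of 233 genes or 35.6%, beside 13.2% of all genes in range.

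On day 0, a left-out library was at least 1 above the day 5 mean in 151 of 228 chosen genes for replicate 1 (66.2%) and in 188 of 193 for replicate 2 (97.4%). The shares were 95.7% for replicate 3 and 87.0% for replicate 4, and all genes in range gave 17.4% to 21.0%. For day 5 the limit is narrower, as the library must lie at least 1 below day 0 and at least 1 above day 7. It did so in 52.5%, 63.2%, 69.1% and 44.7% of the genes chosen without replicates 1 to 4, beside 1.03% to 1.67% of genes in range. The day 0 and day 7 means had helped to choose the former genes but not the latter. That choice alone makes room for such a middle value, so the gap is a description. A left-out day 5 library lay below all day 0 libraries in 89.3% to 100% of the chosen genes, beside 37.7% to 45.6% of genes in range.

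Libraries of the same day were spread widely in the members. On day 0 the ratio of the highest to the lowest library had a median of 2.31 over members and 1.5 over all genes of 5 to 100 CPM. It was under 2 in 78 members, from 2 to 4 in 75 and over 4 in 34, which is 18.2% of members beside 3.24% of all genes in range. On day 5 the medians were 2.79 and 1.44, and the ratio exceeded 4 in 27.3% of members, beside 5.49% of genes in range. Members were at lower levels than other genes on day 5, where counting noise is larger, and the part of that noise was not tested.

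A pair of members, chosen after their values were seen, mark the ends of the day 0 spread. Potri.018G104400 had 24.3, 23.8, 25.7 and 22.3 CPM in day 0 replicates 1 to 4, a ratio of 1.15. Potri.001G096900 had 9.20, 124, 57.1 and 19.7 CPM in the same libraries, a ratio of 13.5. Both fell in each step, with means of 5.55 CPM ± 3.53 and 3.06 CPM ± 2.69 on day 5 and of 0.620 CPM ± 0.533 and 0.310 CPM ± 0.301 on day 7 (SD, n = 4 each).

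The direction of this spread was shared. Day 0 replicate 2 held the highest day 0 level of 122 members (65.2%), beside 20.3% of all genes in range, and replicate 1 the lowest of 113 (60.4%), beside 24.5%. On day 5, replicate 2 was highest in 84 members (44.9%, beside 36.8% of genes in range) and replicate 3 in 73 (39.0%, beside 22.1%), and replicate 4 was lowest in 78 (41.7%, beside 21.3%). On day 7, replicate 2 was highest in 118 members (63.1%, beside 32.2% of genes in range). The rule did not use which library of a day is high, although on day 0 and day 5 it limited the lowest and highest.

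Deviations from the day means were then set beside the mean deviation of the other members over the 12 libraries. The correlation had a median of 0.685 over members (range -0.723 to 0.987), beside -0.152 over the 16780 non-members in range. It was positive in 161 of 187 members (86.1%, beside 38.5%) and over 0.5 in 114 (61.0%, beside 13.3%). All 24 wood genes had a positive value, with a median of 0.802. They lie above 100 CPM on day 0, and the value was not computed for all genes of that level. Whether it is particular to wood genes was therefore not tested. Without day 0 replicate 2 and day 7 replicate 2 the median over members was 0.570, beside 0.0146 in non-members, and with TMM-scaled library sizes these were 0.724 and -0.0355. The first component of these deviations held 52.2% of their variance among members and 30% among all genes in range.

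The total count and the share of the wood genes moved with this spread in part. The total count was lowest in day 0 replicate 1 (9.35 M) and highest in day 0 replicate 2 (16.0 M), as was the module's share. Replicate 4 had more counts than replicate 3 (14.05 M and 13.57 M) but a lower module share (0.685% and 0.834%). On day 5 the order of total counts, 19.2 M in replicate 2, 16.4 M in replicate 3, 13.2 M in replicate 1 and 12.9 M in replicate 4, was also the order of the module's share of counts. On day 7 it was not, since replicate 2 had 13.1 M counts and the deepest library was replicate 3 with 17.7 M. The 24 wood genes took 3.83% of counts in day 0 replicate 2, with 1.89%, 2.60% and 1.69% in replicates 1, 3 and 4, so that they were lowest in replicate 4 and the module in replicate 1. In day 7 replicate 2 they took 0.449%, with 0.166% to 0.217% in the remaining 3. The part of depth or of tissue make-up in the spread of the members was not tested.

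Day 7 replicate 2 did not raise all members alike. Against the median of the other 3 day 7 libraries, it was at least 1 higher in L in 51 members (27.3%, beside 5.45% of genes in range) and at least 1 lower in 5 (2.67%, beside 4.40%). The extremes, chosen after their values were seen, were Potri.014G108300, with 15.8 CPM in replicate 2 and 0.540 to 1.75 CPM in the others (L7-L5 of -1.32, and -2.10 without that library), and Potri.012G100700, with 0.304 CPM and 2.26 to 6.25 CPM. Replicate 2 lay above the median of the other libraries of its day in 144 members on day 0 and in 137 on day 7. These counts alone make a large joint count likely. It lay above on both days in 113 members (60.4%, beside 14.6% of genes in range). Across the 187 members, which share libraries and are not independent, the size of that excess on day 0 and on day 7 had r = 0.19.

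**Figure D5:**
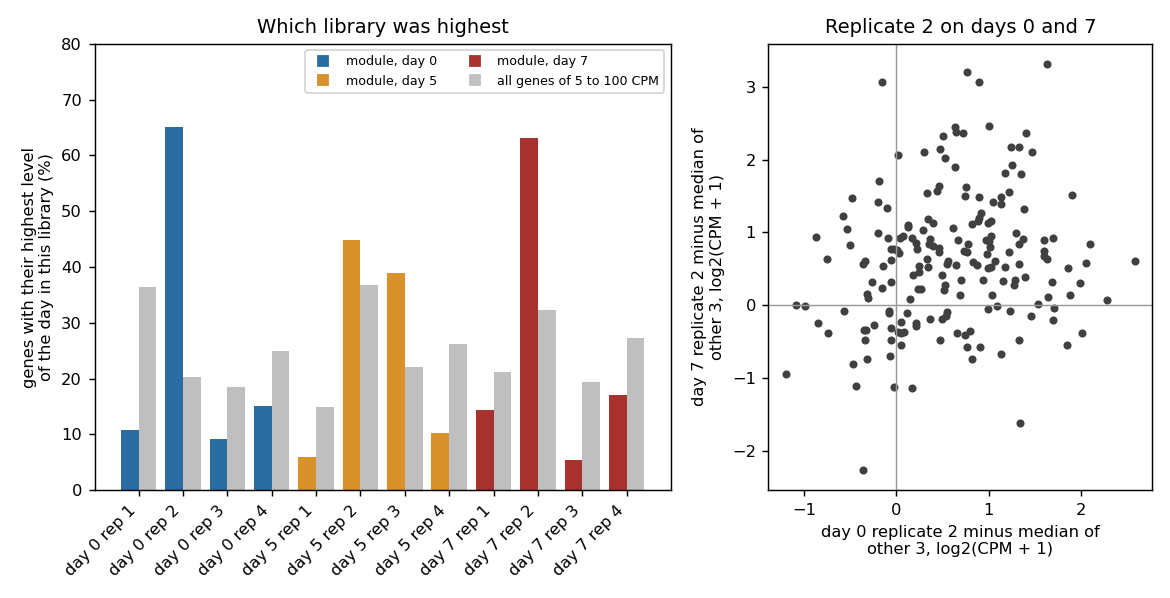
Left, percent of genes whose highest level of the day lies in each library, for the 187 module genes (coloured by day) and all 16967 genes of 5 to 100 CPM (grey); day 0 replicate 2 reaches 65.2% and day 7 replicate 2 reaches 63.1% of module genes. Right, for each module gene, replicate 2 minus the median of the other 3 libraries in log2(CPM + 1), on day 0 (horizontal) and day 7 (vertical); 113 of 187 points lie above 0 on both axes.

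Some members lay side by side in the identifier order. Of 169 direct neighbours of members that had 5 to 100 CPM on day 0, 16 (9.47%) were members, beside 1.10% of all genes in that range. In all, 15 members stood in 8 directly adjacent pairs, and 35 had another member within 10 positions. Reads shared by near-identical copies were not told apart: in 4 of the close pairs the counts differed by at most 15% in every library with at least 30 counts. The closest, Potri.010G040800 and Potri.010G040900, named for that reason after their values were seen, differed by at most 5 counts in any library and averaged 47.0 CPM each on day 0. Whether these counts come from separate transcripts was not tested. No member had counts identical to those of another gene in all libraries. By the chromosome number in the identifier, members lay on all 19 numbered chromosomes, from 1 of 452 genes in range on chromosome 19 to 19 of 1218 on chromosome 2.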

How the data were processed

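The deposited values are raw counts per gene, 1 column per library, for 41335 identifiers, which the authors had not scaled. TopHat is named in the submitters' processing notes. Its version, the build, the counter and the strand setting are not given in the sources used for this work, so reads of overlapping, antisense or near-identical genes may be shared. None of the identifiers matched the RefSeq gene table of assembly P.trichocarpa_v4.1, so no gene list was drawn from product names in these tables and no sequence was used. The 24 wood genes form a list fixed by identifier from published designations. The members, lists and comparisons were chosen with earlier results of these data known. The rule used CPM from column sums and a pseudocount of 1 CPM. Genes kept by filterByExpr (minimum count 10) were fitted with edgeR 4.0.16 in R 4.3.3 (TMM scaling, glmQLFit and glmQLFTest, 1 mean per day over all 12 libraries, Benjamini-Hochberg threshold 0.05). DESeq2 1.42.0 served as an alternative. The rule and the fit were run on simulated counts with planted falls, independent genes and no effect shared by a library. The real members share such deviations, so these runs checked the code and not the members. Genes named are the 2 members with the lowest L5-L0, the 2 with the lowest L7-L5, the 2 with the highest mean on day 0 and the 2 non-members most like the module mean; others are marked as chosen after their values were seen. Libraries of 1 day all differed by more than sampling noise (lowest chi-square of a pair 13.0 per degree of freedom). Depth per library, 9.35 to 19.2 M counts, sets the precision of low values.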

Additional observations from a re-analysis of the deposited data

Results flagged for a closer look

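In 24 groups of 4 libraries (the module's median and share of counts and the 6 named members, on 3 days), in 6 a single value stood off by Dixon's criterion. Chance gives about 1 in 20 independent groups of normally distributed values, and these groups share libraries and genes. The named members were judged in CPM, where low values can be skewed. The number flagged therefore depends on that scale. On day 7, replicate 2 had a module median of 1.68 in log2(CPM + 1), against 1.01 to 1.11 in the other libraries. The module's share of counts there was 0.0882%, against 0.0392% to 0.0432%. In the same library Potri.006G005600 was at 18.2 CPM, against 2.08 to 3.24 CPM, and Potri.002G176800 at 14.1 CPM, against 1.47 to 2.32 CPM. Potri.017G085000 was at 1.93 CPM in day 7 replicate 4, against 0.0564 to 0.232 CPM. Potri.004G044700 was at 10.5 CPM in day 5 replicate 3, against 1.35 to 2.32 CPM.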

How the results depend on the processing

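The number of members was 187 as reported, 108 with 2 CPM added before logs in place of 1, and 113 when day 7 libraries also had to lie below those of day 5; both sets lie within the 187. With other scalings, 0.5 CPM added or medians in place of means it was 159 to 239, and 96 members were found under all of these and with 2 CPM added. Without any 1 library it was 168 to 233, and 100 members were found in every such choice; without both day 0 replicate 2 and day 7 replicate 2, an alternative chosen after seeing the data, it was 243, of which 164 were among the 187. The median log2 fold change of members for day 7 against day 5 lay between -2.37 and -1.74 with 1 library left out, and was -2.37 without day 7 replicate 2. For day 5 against day 0 it lay between -2.36 and -1.94, and for day 7 against day 0 between -4.61 and -3.90. Members called lower then numbered 159 to 187, 186 to 187 and 120 to 167 in the comparisons of day 5 and of day 7 with day 0 and of day 7 with day 5; other scalings, other low count filters and DESeq2 gave 179 to 184, 186 to 187 and 150 to 165. Counts of calls over all genes stayed within 1.5 times in each of these settings. No step of the 12 named members changed sign in 456 recomputed values. These members had been chosen for a fall in both steps, and some settings left out a library that does not enter the step. The count is therefore a description. Some second steps no longer reached the limit of -1, the smallest being -0.68 for Potri.004G044700 without day 5 replicate 3. With the replicate number as a block, 186, 187 and 165 members were called lower in these comparisons, beside 7515, 6171 and 5181 of all genes tested. The labels do not say that a number marks a shared plant, so the numbers were not taken as pairs. Of the same-numbered pairs, 6 of 12 correlated above 0.1 (range -0.21 to 0.51), with the highest value between day 5 and day 7 replicate 2. The best match of a library among the 4 of another day had its own number in 9 of 24 cases. Numbers without meaning would give about 1 in 4. Correlations of pairs with unlike numbers were not set beside these. Whether a number marks a shared batch was not tested. At this depth, a member under 1 CPM on day 7 rests on few counts, which limits how precisely its second step is known.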

Other observations

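A further 72 genes met every limit but the separation of day 5 from day 0 libraries. Of these, 44 would have passed without day 0 replicate 1, 25 without day 5 replicate 3 and 11 without day 5 replicate 2, and none depended on day 0 replicate 2 or 3 or on day 5 replicate 1. By contrast, 2750 genes of 5 to 100 CPM met every limit but the second step, and in 1975 of them the mean L was higher on day 7 than on day 5. Another 15 met every limit but the first step.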
